A study of Mus musculus with 2 samples.

Results

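The clustered acetylation domains of the embryonic mouse heart were 1122 autosomal stretches of the mm9 genome in which H3K27ac peaks lay close together. They were chosen from 2 deposited peak lists, 1 from the atrioventricular canal (AVC) and 1 from the heart chambers. Peaks on the mitochondrial, X and Y chromosomes were left out, and peaks had to be at least 400 bp wide with a deposited signal value under 1000. These eligible peaks of both lists were pooled, overlapping ones were merged, and merged peaks separated by no more than a fixed gap were stitched into units, so that the closest domains lay 12.512 kb apart. A unit with 8 or more merged peaks was a clustered domain, and 1122 of 35691 units met this (3.14%). Positions, widths and signal values of both lists thus chose the domains, so numbers of domains, their lengths, their covered base pairs and the shares of eligible peaks in them are descriptions without a test or an interval.

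Both libraries came from hearts at stage E10.5 on the FVB/N background, and both carried the genotype label Katushka+ EGFP+. Cells sorted by flow cytometry for EGFP were labelled atrioventricular canal, and cells sorted for the red fluorescent protein Katushka were labelled chambers. There was 1 library per tissue, so no difference between the tissues has a replicate check. The promoters that drive the reporters, and whether hearts were pooled, are not given in the sources used here. No mm9 annotation or sequence was used, so domains are named by position, and the tissue labels were not checked against marker genes.

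H3K27ac is the acetylation of histone H3 at lysine 27, a mark of active promoters and enhancers. Dense clusters of such elements are often found around genes that set the identity of a cell, and joining neighbouring peaks over a fixed gap is the usual way to find them. The atrioventricular canal conducts slowly, separates atria from ventricles, and gives rise to the atrioventricular node and, through its cushions, to the valves. The T-box repressors Tbx2 and Tbx3 are known to hold back the chamber program there. Chamber myocardium conducts fast and contracts strongly, under activators such as Tbx5, Nkx2-5 and Gata4.

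The lists entered the pool unequally. Of the autosomal peaks 62534 of 86942 AVC peaks were eligible (71.9%, exact 95% interval 71.6 to 72.2), against 19630 of 66142 chamber peaks (29.7%, 29.3 to 30.0). Width accounted for nearly all of this, since 24387 AVC and 46501 chamber peaks were narrower than 400 bp. The median autosomal peak was 472 bp wide in the AVC and 326 bp in the chambers. Eligible peaks covered 34.5 Mb in the AVC and 10.51 Mb in the chambers, a ratio of 3.28, which is the reference for every domain below. The sequencing depth behind the lists is unknown, and intervals cover counting error only.

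Clustering was the exception among the units. The 82164 eligible peaks merged into 74891, and 21202 of the 35691 units held a single merged peak. A further 10057 units held 2 or 3 and 3310 held 4 to 7. The domains held 14310 merged peaks, 19.1% of all. Numbers fell smoothly through the limit that defines a domain. There were 332 units of 7 merged peaks, just outside, with a median length of 27.1 kb, and 267 units of 8, just inside, with 31.1 kb. Median covered lengths on both sides of the limit were 3137 and 3534 bp in the AVC and 1207 and 1460 bp in the chambers.

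**Figure D1:**
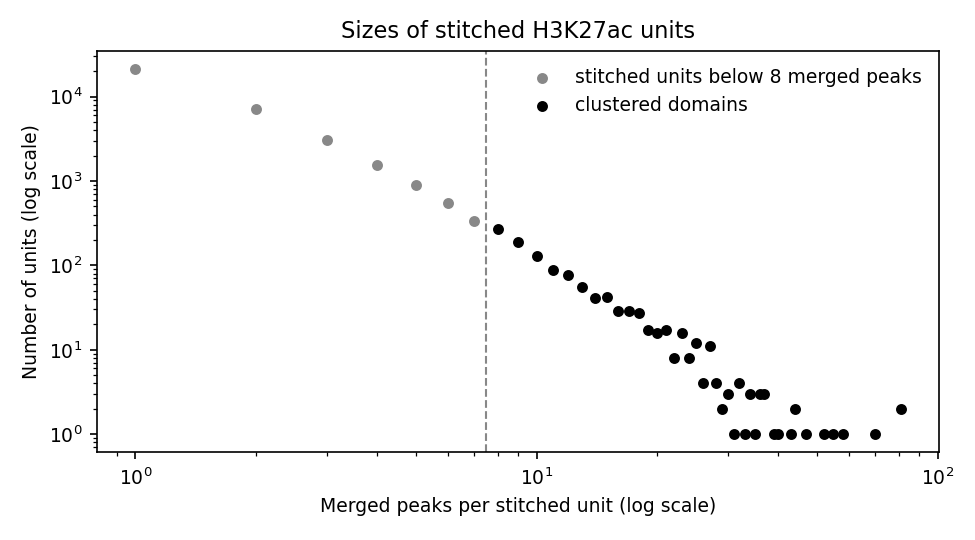
Number of stitched units (vertical axis, log scale) by the number of merged peaks they hold (horizontal axis, log scale); grey points are units under 8 merged peaks and black points are the 1122 clustered domains. The numbers fall without a step at the limit, from 332 units of 7 to 267 of 8, and 2 domains reach 81.

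A typical domain was 41.2 kb long and held 10 merged peaks. Lengths ran from 7.87 to 246 kb, with quartiles of 30.6 and 55.6 kb, and merged peaks from 8 to 81, with quartiles of 9 and 14. There were 33 domains over 100 kb and 67 under 20 kb. Peaks covered a median of 16.3% of a domain (quartiles 12.7 and 21.1%), so most of its length was spacing. The median gap between neighbouring merged peaks was 2.02 kb, well below the stitching limit, and 733 of 13188 gaps (5.56%) exceeded 10 kb. Together the domains spanned 51.7 Mb, 2.15% of the autosomal span of 2410 Mb between first and last peaks, and 8.65 Mb of that was covered by peaks.

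All 19 autosomes carried domains, at uneven density. The average was 46.6 domains per 100 Mb. Chromosome 17 had 63 domains (68.4 per 100 Mb), chromosome 7 had 101 (67.6) and chromosome 18 had 54 (61.5). At the other end were chromosome 5 with 50 (33.5), chromosome 9 with 43 (35.5) and chromosome 1 with 72 (37.1). Peak density did not follow the same order. Chromosome 11 had the most merged peaks per Mb (35.9), close to chromosome 7 (35.4), yet 19.7% of its merged peaks lay in domains against 26.1% on chromosome 7. On chromosome 9, with 30.6 merged peaks per Mb, 14.3% did. Both lists are scored chromosome by chromosome, and a given score can stand for different signal on different chromosomes, whose part in this spread was not tested.

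**Figure D2:**
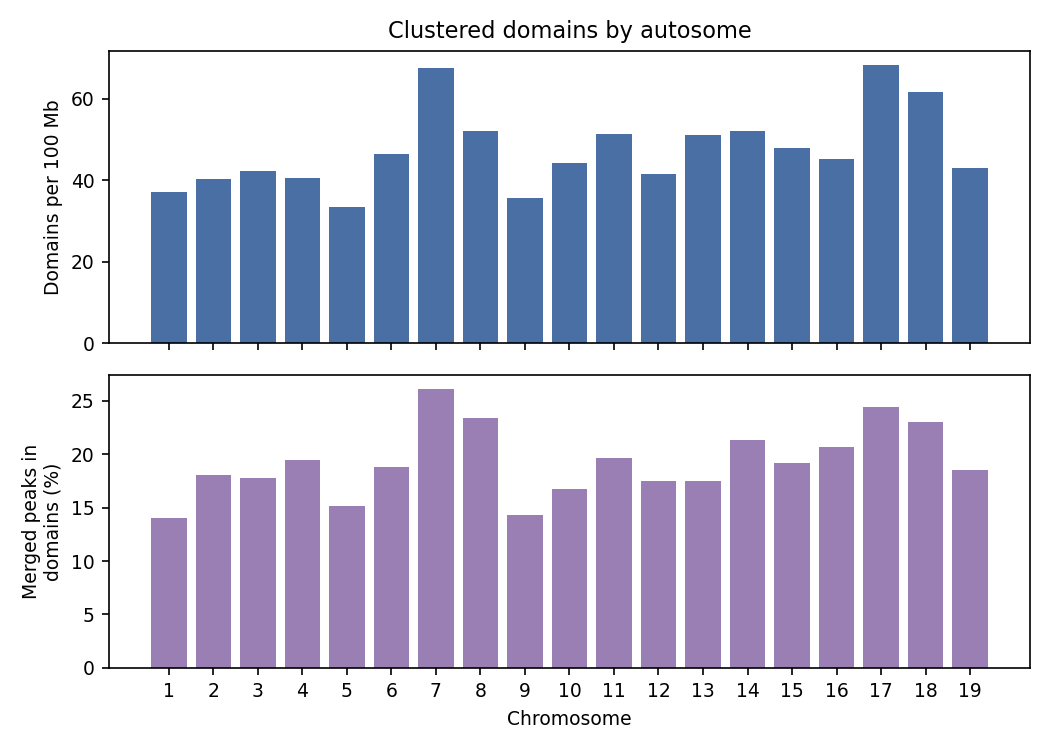
Clustered domains per 100 Mb between the first and last peak of each autosome (upper bars) and the percentage of its merged peaks that lie in domains (lower bars). Chromosomes 7 and 17 are highest in both, at 67.6 and 68.4 domains per 100 Mb and 26.1 and 24.5%, and chromosome 5 has the lowest density, 33.5.

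Counted in eligible peaks, domains held relatively more of the chamber territory than of the AVC territory. They contained 6.62 of the AVC's covered Mb (19.2%) and 3.17 of the chambers' (30.1%). By number, 11451 of 62534 eligible AVC peaks lay in domains (18.3%) and 5653 of 19630 eligible chamber peaks (28.8%). The AVC-to-chamber ratio of covered length was 2.09 inside domains, from means of 5902 and 2822 bp per domain. It was 3.80 outside, from 27.9 and 7.34 Mb. Leaving out the domain at the assembled start of chromosome 11, which is described below, gave 2.11 inside. The lists were closer when peaks of every width were counted. Of all autosomal peaks 16.2% in the AVC and 18.4% in the chambers lay in domains. The ratio of covered length for peaks of any width was 1.48 inside domains and 1.81 over all autosomes.

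In absolute length the AVC covered more of most domains as the lists stand. Equal numbers of eligible peaks in both lists gave another set of 365 domains, where the split was near even. Of those, 48.8% had more AVC than chamber length, and the median AVC share of the covered length was 48.8%. In the 1122 domains the AVC covered between 894 and 49996 bp of a domain (median 4822), and the chambers between 0 and 53641 bp (median 2078). More AVC than chamber length was found in 998 of 1122 domains (88.9%) and more chamber length in 124 (14.2% of all units were so). The median AVC share of the covered length, AVC bp over the sum of both, was 70.2% (quartiles 58.3 and 82.1%). Pooled over the covered length, the AVC share was 67.7% in domains, against 76.7% over all eligible peaks.

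Domains whose AVC-to-chamber ratio was at least 2 times the reference (above 6.57) are called AVC-leaning, and those at or below the reference divided by 2 (1.64) chamber-leaning. There were 200 AVC-leaning domains (17.8%), 368 chamber-leaning (32.8%) and 554 in neither class. The same limits called 70.4% of all stitched units AVC-leaning and 20.4% chamber-leaning, but most units are single peaks of 1 list. Among the 3310 units of 4 to 7 merged peaks the shares were 31.1 and 28.8%. The balance of directions depended on the measure. Counting peaks of any width in the same domains, with their own reference of 1.81, gave 180 AVC-leaning and 198 chamber-leaning domains. With the ratio within domains as the reference the numbers were 315 and 142.

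**Figure D3:**
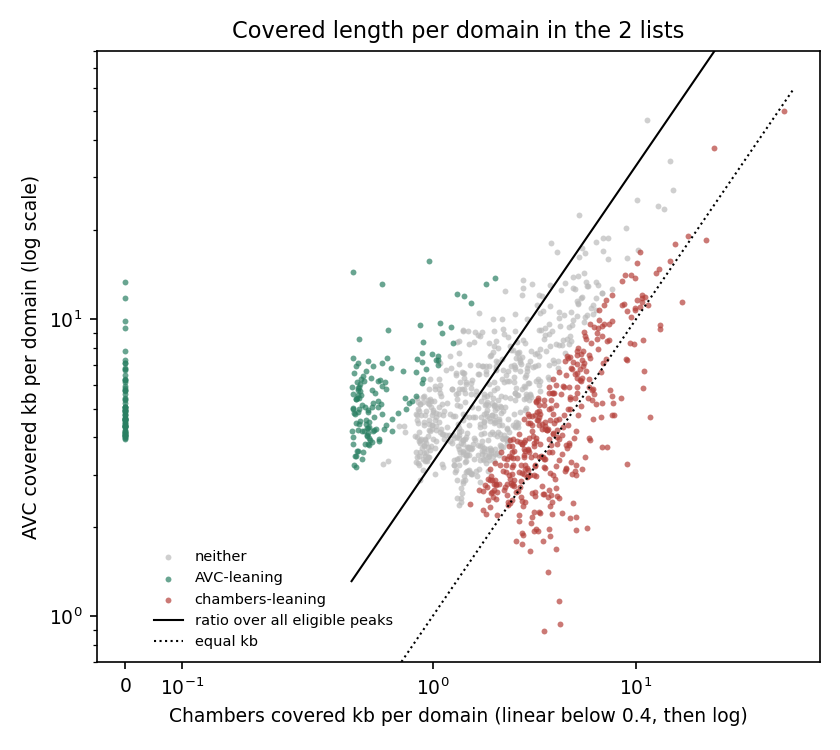
Covered kb per domain in the chambers (horizontal axis, linear near 0 and then log) and in the AVC (vertical axis, log scale), 1 point per domain; green points are AVC-leaning, red chamber-leaning and grey neither. The solid line is the ratio of 3.28 over all eligible peaks and the dotted line equal length; 124 domains lie below the dotted line and 72 have no chamber length.

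The larger a unit was, the lower the AVC share of its covered length. The pooled share was 85.5% for single merged peaks, 78.4% for units of 2 or 3 and 72.7% for units of 4 to 7. Within the domains it went from 69.7% at 8 or 9 merged peaks over 68.9% at 10 to 14 and 67.0% at 15 to 24 to 64.1% at 25 to 39. The 11 domains of 40 or more stood at 61.9%, or 65.3% without the one at the start of chromosome 11, so the last step rests on that domain. Peaks of any width gave the same order at lower values, from 83.7% for single merged peaks to 55.3% at 40 or more. This is not a separate check, because the units were built from eligible peaks. Units of a single merged peak had a median length of 0.51 kb, with little room for narrow peaks, while larger units included gaps. Of all narrow autosomal peaks 65.7% were chamber peaks.

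**Figure D4:**
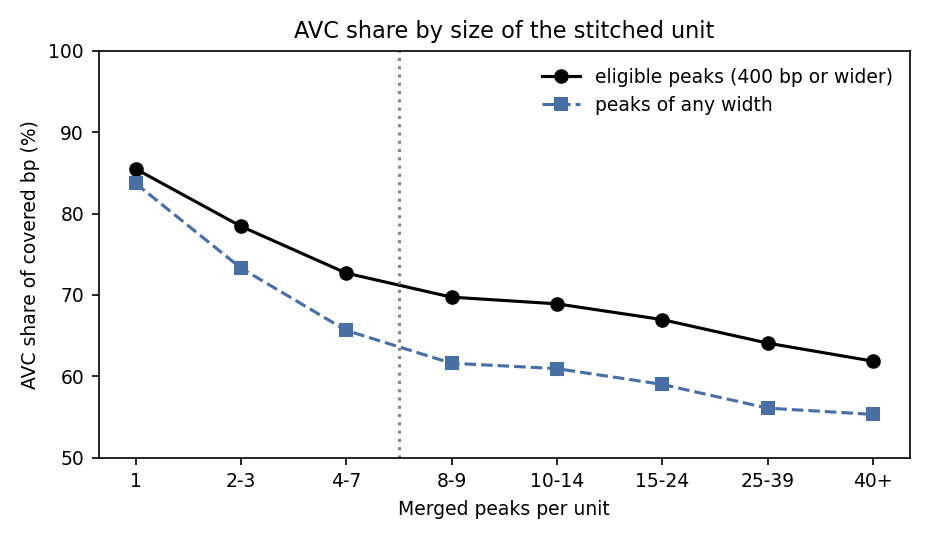
AVC share of the covered bp, pooled over units of each size class (horizontal axis, merged peaks per unit), for eligible peaks (black) and for peaks of any width (blue). The vertical axis runs from 50 to 100%, and the dotted line separates smaller units from domains. Eligible peaks go from 85.5 to 61.9% and peaks of any width from 83.7 to 55.3%.

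Calls per size class moved in the same way. AVC-leaning domains made up 22.9% of those with 8 or 9 merged peaks, 9.57% at 15 to 24 and 0 of 11 at 40 or more, and chamber-leaning ones went from 30.1 over 34.5 to 45.5%. AVC-leaning domains had at most 28 merged peaks and 140 kb. Their median AVC length was 5069 bp and their median chamber length 431 bp, which is about the width of 1 eligible peak. Chamber-leaning domains had medians of 3946 and 3821 bp, so the typical member of this class was covered to about the same length in both lists.

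Inside domains the lists overlapped more than outside. Domains were chosen for closely spaced eligible peaks of these same lists, so more overlap inside them is in part built in. The overlap that the spacing alone would give was not computed. Of the merged peaks in domains 16.4% held peaks of both lists, against 6.80% outside. A further 62.04% came from the AVC list alone (77.2% outside) and 21.6% from the chamber list alone (16.0% outside). Among eligible AVC peaks in domains 22.5% overlapped an eligible chamber peak, against 8.40% outside. For chamber peaks the values were 45.4% and 30.8%. In 832 domains some base pairs were covered in both lists, with a median of 536 bp over all domains.

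Stronger eligible peaks lay in domains more often, in both lists. The score is the peak caller's Log(ER), a measure of enrichment set within each chromosome of a list. Of AVC peaks with scores from 2 to 2.5, 12.7% were in domains, rising to 35.5% at 5 to 10 and 47.4% at 10 or more. Among chamber peaks the shares in the same classes were 19.5%, 33.0% and 36.0%. So the chambers had the larger share among weak peaks and the AVC among the strongest, although equal scores need not mark equal enrichment in the 2 lists. The class of 10 or more includes most peaks of the domain at the start of chromosome 11. Shares without that domain were not computed. Median scores inside and outside domains were 3.09 and 2.65 in the AVC and 4.80 and 4.09 in the chambers.

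Peaks narrower than 400 bp, which had no part in choosing the domains, lay in them less often. Of the narrow peaks under the signal limit 2664 of 24275 in the AVC (10.97%, 10.58 to 11.37) and 6485 of 46439 in the chambers (13.965%, 13.65 to 14.28) fell inside domains, which make up 2.15% of the span. The order by score was reversed at the top of this class. At scores of 10 or more 3.25% of 2122 narrow AVC peaks and 3.24% of 1822 narrow chamber peaks were inside, against 16.1 and 17.9% at scores of 3 to 5. Narrow AVC peaks were found in 887 domains and narrow chamber peaks in 1059. In AVC-leaning domains chamber peaks made up 61.9% of the narrow peaks (58.7 to 65.1), in chamber-leaning domains 72.0% (70.4 to 73.4) and in domains leaning neither way 71.8% (70.5 to 73.1). The share was 70.9% (69.9 to 71.8) over all domains and 64.9% (64.5 to 65.3) outside them.

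The domain with the most merged peaks lay on chromosome 4 at 32334367 to 32580061, 246 kb long with 81 merged peaks. Its covered length was 46660 bp in the AVC and 11349 bp in the chambers, an AVC share of 80.4%. Of its merged peaks 64 came from the AVC list alone, 10 from both and 7 from the chamber list alone. The strongest AVC peak, with a score of 13.42, lay at 32424860 to 32426039, and did not overlap the strongest chamber peak at 32391152 to 32392444, which scored 20.74. The tissues thus placed their highest scores at different points of one cluster.

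A domain on chromosome 7 at 119785139 to 119997548 also held 81 merged peaks, over 212 kb, and had a different make-up. It was covered over 37572 bp in the AVC and 24219 bp in the chambers (AVC share 60.8%), and 25 merged peaks held both lists. Its strongest peaks coincided, at 119804420 to 119805110 in the AVC (score 11.17) and 119803861 to 119805024 in the chambers (19.15). The third by merged peaks, with 70, lay on the same chromosome at 149609472 to 149802185, with 34045 bp in the AVC and 14639 bp in the chambers (69.9%).

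The other domains among the 10 with the most merged peaks had 43 to 58 and AVC shares between 48.2 and 71.3%. On chromosome 3 at 27471404 to 27628266 the covered lengths were 27269 bp (AVC) and 15138 bp (chambers). On chromosome 15 at 76916818 to 77098256 they were 25219 and 10135 bp. A domain on chromosome 14 at 120658192 to 120813384 had 23536 and 13711 bp. Chromosome 4 held a pair more, at 57524883 to 57652727 with 24093 and 12877 bp, and at 82005568 to 82160108 with 15700 and 14721 bp, where 17 merged peaks came from the chamber list alone and 20 from the AVC list alone. The domain on chromosome 8 at 11259467 to 11400809 had 16826 and 10508 bp. The fifth longest domain, 164 kb, was on chromosome 4 at 154461198 to 154624730 with 17410 against 5410 bp and an AVC share of 76.3%, which is close to the reference.

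The remaining domain of the 10 stood apart. It began 25.6 kb after the first peak of chromosome 11, at 3025930 to 3102305, and peaks covered 49996 bp (AVC) and 53641 bp (chambers) of its 76.4 kb, with 39864 bp in both lists. Of its 55 merged peaks 43 held both lists. Its median scores were 24.3 in the AVC and 20.7 in the chambers, against list medians in domains of 3.09 and 4.80. It also held 3 of the 4 AVC peaks inside domains that exceed the signal limit. A total of 5 domains started within 200 kb of a chromosome's first peak.

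Of the other 4 domains with the most length covered in both lists, the one on chromosome 7 at 119785139 to 119997548, described above, had 9849 bp in both and more AVC than chamber length. The other 3 had chamber lengths near or above the AVC lengths. On chromosome 14 at 63825995 to 63892280, 32 merged peaks over 66.3 kb were covered for 18504 bp in the AVC and 22128 bp in the chambers, 12589 bp of it in both. The strongest peaks there were high in both lists and overlapped, with scores of 19.41 at 63866553 to 63867844 (AVC) and 30.37 at 63866024 to 63867824 (chambers). On chromosome 17 at 12920896 to 13002817 the lengths were 19040 and 18019 bp, with 9567 bp in both. On chromosome 2 at 17949323 to 17989373 they were 11430 and 16743 bp, with 9055 bp in both, and 12 of 21 merged peaks held both lists.

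At the AVC end of the order 72 of the 1122 domains had no eligible chamber peak. Smaller units lacked chamber peaks more often. The median AVC share was 100% for single merged peaks and for units of 2 or 3, so most of those units had none. For units of 4 to 7 merged peaks the median was 77.3%. Their AVC length ran from 3947 to 13334 bp, with a median of 4820, and they held 8 to 22 merged peaks. At least 1 narrow chamber peak was present in 57 of the 72, 151 peaks in all, and the rest held no narrow chamber peak. Of these tied domains the 5 with the most covered length are named. The first lay on chromosome 13 at 56647838 to 56710699, with 22 AVC peaks over 13334 bp, 3 narrow chamber peaks and a top AVC score of 11.19 at 56702916 to 56703871. Next came chromosome 13 at 12963876 to 13034026, with 20 AVC peaks over 11793 bp and 2 narrow chamber peaks. The others were on chromosome 15 at 14997907 to 15054271 (9860 bp), on chromosome 15 at 53065769 to 53151503 (9313 bp, with 11 narrow chamber peaks) and on chromosome 6 at 91133362 to 91171911 (7811 bp). The last of these had no chamber peak of any width. Counting all widths, the AVC shares of these 5 domains were 94.7, 96.9, 95.5, 75.5 and 100%.

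At the chamber end no domain lacked AVC peaks. The AVC list supplied 62534 of the 82164 eligible peaks, so the ends of the order cannot be compared on equal terms. Outside domains 16.0% of merged peaks came from the chamber list alone, and the share of units without AVC peaks was not computed. The lowest AVC share, 18.1%, was found on chromosome 12 at 77466295 to 77480268, with 940 bp in the AVC and 4249 bp in the chambers over 13.974 kb. A domain on chromosome 16 at 16896759 to 16909184 had 894 and 3536 bp (20.2%). On chromosome 11 at 69207786 to 69232945 the lengths were 1123 and 4178 bp, with none in common (21.2%), and on chromosome 10 at 18127104 to 18168258 they were 1979 and 5773 bp (25.5%). These 4 held between 8 and 12 merged peaks.

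The fifth lowest share, 26.4%, belonged to a domain with far stronger peaks. It lay on chromosome 17 at 26974647 to 27007439 and had 3249 bp in the AVC and 9065 bp in the chambers. Its strongest chamber peak, with a score of 26.38, lay at 26980379 to 26982718 and overlapped the strongest AVC peak, which scored 10.94 at 26980215 to 26981543. Of its 13 merged peaks 9 came from the chamber list alone, 3 from both and 1 from the AVC list alone. With narrow peaks counted its AVC share was 33.9%, and those of the other 4 lay between 19.7 and 23.2%.

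**Figure D5:**
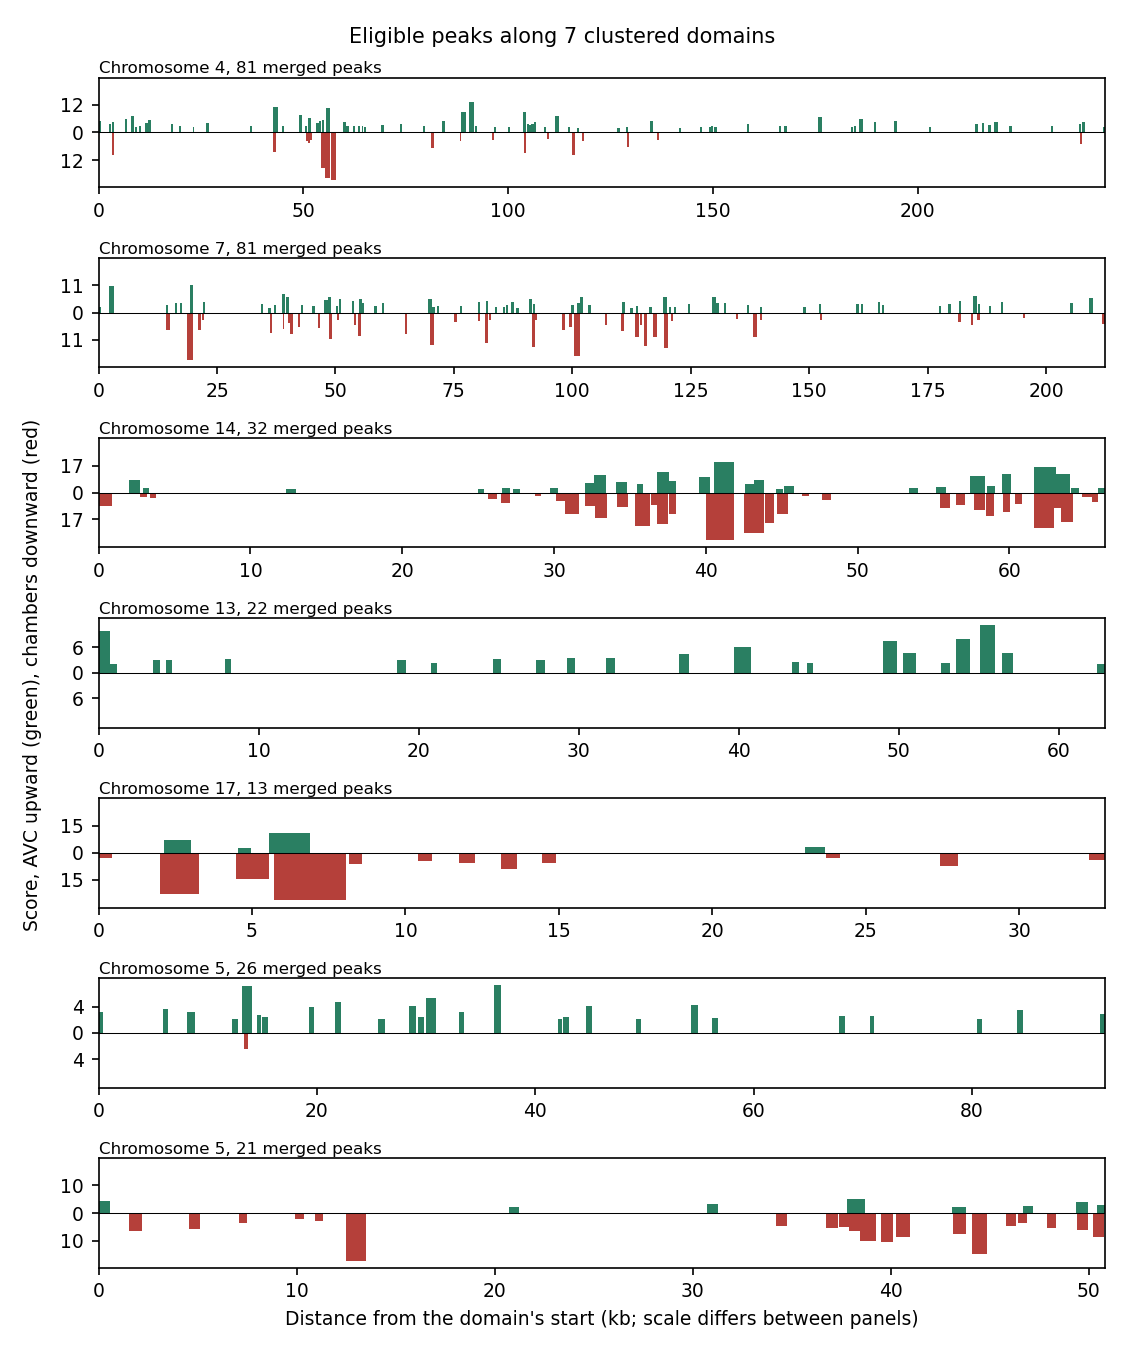
Eligible peaks along 7 domains, each from its start (horizontal axis, kb, with a different scale per panel); bars show the score of AVC peaks upward in green and of chamber peaks downward in red. The domain of 22 merged peaks on chromosome 13 has no chamber bar, that of 13 on chromosome 17 has its tallest bars in the chambers (26.38 against 10.94), and the chromosome 5 pair shows the domains with 97.2 and 28.4% AVC share.

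Domains were themselves close together in places. The median distance to the next domain was 751 kb, but 160 of 1103 neighbouring pairs lay within 50 kb of each other. At this distance 828 domains stood alone, and there were 110 chains of 2 domains, 22 of 3 and 2 of 4. Of these 160 pairs 9 had both members AVC-leaning, 16 both chamber-leaning, 42 neither member leaning and 6 members leaning opposite ways, and in the rest 1 member leaned. Over all domains 17.8% were AVC-leaning and 32.8% chamber-leaning. Whether neighbours shared a leaning more often than domains far apart was not tested.

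The chain with the widest spread of AVC shares, of the 24 with 3 or more domains, ran on chromosome 5 from 120033153 to 120293291. Its first domain, 92.2 kb with 26 merged peaks, had 14383 bp in the AVC and 408 bp in the chambers (97.2%). The second began 16.6 kb further on, at 120141949 to 120194842, and had 9420 and 1231 bp (88.4%). The third followed after 47.6 kb, at 120242476 to 120293291, with 4676 bp in the AVC and 11766 bp in the chambers (28.4%). The highest AVC scores in the 3 domains were 7.30, 8.91 and 5.16, and the highest chamber scores 2.51, 5.87 and 17.12, so the AVC score was highest in the second domain and the AVC length in the first. With peaks of any width the shares were 91.2, 89.5 and 27.5%. The range within this chain was 68.8 percentage points, and the next widest, on chromosome 7 from 119270039 to 119488895, was 44.8. The chain of 4 on chromosome 12 kept to AVC shares between 76.2 and 89.4% across 4 domains.

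The other pairs with opposite leanings changed less. On chromosome 17 a domain at 86701797 to 86757567 had 4119 bp (AVC) and 3927 bp (chambers), and the next, at 86782769 to 86810578, had 4414 and 592 bp. On chromosome 18 a domain at 4924389 to 4956571 with 4817 and 675 bp was followed 23.9 kb later by a larger one, at 4980521 to 5036688, with 9529 and 13054 bp. A further pair on chromosome 18 had 7094 and 5544 bp at 11043998 to 11060295 and then 5047 and 541 bp at 11077718 to 11114909. The pairs on chromosomes 7 and 12 went from AVC shares of 100 and 92.9% to 55.2 and 55.7%.

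Single domains were also cut at the midpoint. By this cut 124 domains (11.1%) had parts that leaned opposite ways by the limits above, 112 had both parts AVC-leaning and 181 both chamber-leaning. The parts of a typical domain of 10 merged peaks hold few peaks each, and smaller units were not cut in this way for comparison. Among the 64 domains of 25 or more merged peaks 3 had opposite parts. In the largest of these, on chromosome 7 at 119387901 to 119488895, the part nearer the chromosome's start held 6040 bp of AVC and 3765 bp of chamber peaks, and the other part 7034 bp and none. The first part's AVC share, 61.6%, was just under the chamber-leaning limit of 62.2%. On chromosome 18 at 60763255 to 60846907 the parts held 5486 and 3914 bp, and 8381 and 1002 bp. In both of these domains each part had more AVC than chamber length. On chromosome 16 at 24466168 to 24553764 the first part held 7460 and 9461 bp, and the second 3452 and 404 bp.

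In the 1050 domains with eligible peaks of both lists, the strongest AVC and the strongest chamber peak overlapped in 228 (21.7%). Overlap with any eligible peak of the other list is a looser measure. It held for 22.5% of eligible AVC peaks and 45.4% of eligible chamber peaks in domains. How often an AVC and a chamber peak picked without regard to score overlap was not computed. In the other 822 they lay a median of 11.6 kb apart (quartiles 4.73 and 22.6 kb, at most 102 kb). A peak with a score of 5 or more was present in 71.8% of domains in the AVC and in 72.7% in the chambers. At a score of 10 or more the values were 19.6% and 36.2%, while such peaks made up 1.295% of eligible AVC and 11.9% of eligible chamber peaks.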

How the data were processed

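H3K27ac ChIP-seq peak lists of 1 AVC and 1 chamber library were used. Per the submitters' processing notes, Bowtie, SAMtools and mm9 were used, with no roles given. Per the file headers, the authors called peaks separately in each library with OccuPeak 1.3, chromosome by chromosome, at a Log(ER) threshold of 2. The deposited score is Log(ER) as the caller writes it, and its log base is not stated. The deposited signal is an unnamed whole number per peak, not scaled between the lists. Depth and any control library are not given in the sources used here.

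Domains were built in Python 3.11.15 with pandas 2.3.3, numpy 2.4.6 and scipy 1.17.1, and drawn with matplotlib 3.10.9. The numbers of merged peaks, units and domains equalled those from bedtools 2.31.1. In simulated lists all 597 planted domains were recovered with equal borders. The simulated peaks never overlapped, so this checked the stitching and not the merging of overlapping peaks. Gaps of up to 12.5 kb were stitched, and overlap means at least 1 bp. Intervals, given for shares that the choice of domains did not use, are exact Clopper-Pearson 95% intervals. Positions are mm9, 1-based.

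The domains and their rule were chosen with earlier results of these data known. Domains named are the 10 with the most merged peaks, the 5 longest, the 5 highest and 5 lowest AVC shares (ties by covered length, more first) and the 5 with most length in both lists. Chains, opposite pairs and midpoint splits, with the domains named for them, were chosen after their values were seen. The planned look-up of genes and marker lists was not run, because no mm9 annotation was used here.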

Additional observations from a re-analysis of the deposited data

Results flagged for a closer look

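Some signal lay in peaks that the choice of domains did not use. Narrow peaks inside domains numbered 2664 in the AVC and 6485 in the chambers. Of the peaks at or above the signal limit, 4 AVC peaks and 1 chamber peak lay in domains. Of these, 3 AVC peaks belonged to the domain at the start of chromosome 11, with signal values from 1056 to 1233. The other AVC peak, at 123370908 to 123371354 on chromosome 9 with a signal value of 64190, overlapped the chamber peak, whose value was 35043.

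The X chromosome, left out of the rule, had 268 AVC and 131 chamber peaks of eligible width and signal. They formed 285 units, the largest of 6 merged peaks, so none reached the 8 that define a domain.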

How the results depend on the processing

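The number and make-up of domains depended strongly on the processing, while the chambers kept the larger share of eligible peaks inside domains under all 8 alternatives. Each alternative chose its domains anew from peaks of the same lists, so these are not separate checks. The shares were closest with equal numbers of eligible peaks, 13.3% in the AVC and 15.3% in the chambers. From 1122, the number of domains went to 373 with a stitching gap of 5 kb, 2154 with a minimum width of 300 bp, 313 with 500 bp, 664 with 10 merged peaks, 345 with scores of at least 3 and 365 with equal numbers of eligible peaks in both lists. It stayed within 1.5 times with a 20 kb gap (1671) and without the signal limit (1122). Stitching the AVC list alone gave 671 and the chamber list alone 149.

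For the 5 kb and 20 kb gaps, 300 and 500 bp widths, 10 merged peaks, scores of at least 3 and equal numbers, in this order, the AVC peaks in domains were 5.45, 30.8, 28.1, 8.11, 13.4, 12.2 and 13.3%. The chamber peaks in domains were 10.9, 43.1, 38.8, 16.0, 21.8, 16.5 and 15.3%. AVC-leaning domains numbered 42, 376, 325, 52, 95, 54 and 49. Chamber-leaning domains numbered 167, 459, 571, 130, 230, 99 and 91.

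Each setting was counted in its own set of domains. Domains with more AVC than chamber length were 79.9% (5 kb), 91.7% (20 kb), 80.2% (300 bp) and 85.6% (500 bp). They were 65.8% with scores of at least 3 and 48.8% with equal numbers, a near-even split. The median AVC share was 64.0% (5 kb), 73.0% (20 kb), 63.9% (300 bp), 56.4% (scores of at least 3) and 48.8% (equal numbers). With equal numbers the AVC list is shortened by construction.

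Chosen after seeing the data, counting peaks of any width in the same domains gave 78.2% of domains with more AVC length, a median AVC share of 60.7% and 198 chamber-leaning domains. The ratio within domains as the reference gave 315 AVC-leaning and 142 chamber-leaning domains. With overlap of 50% of the shorter peak, 18.7% of AVC and 38.1% of chamber peaks in domains overlapped the other list. Peaks with scores of at least 3 were counted in the 345 domains rebuilt from such peaks. There 35.7% of AVC peaks in domains overlapped the other list. Of narrow peaks with such scores, 5.03% in the AVC and 7.52% in the chambers lay in these fewer domains. Except for settings that use fewer peaks by construction, the cause was not tested. No paired analysis was possible because the tissues have 1 library apiece. The unknown depth limits what a missing peak shows.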
